A study of Mus musculus with 16 samples.

Results

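Transcripts of the pore-forming (alpha) subunits of voltage-gated sodium, calcium and potassium channels were examined in cultured sympathetic ganglia. Members were chosen by symbol and class alone, as the protein-coding genes named Scn plus a number and a, Cacna1 plus 1 letter, or Kcn plus one of the letters a, b, c, d, f, g, h, q, s or v and a number. This gave 60 members of the 56941 genes in the nerve table, 21684 of which are protein-coding. They were 10 sodium, 10 calcium and 40 potassium channel genes. Explants of superior cervical ganglia (SCGs) came from C57BL/6J pups 1 to 4 days after birth and were grown for about 70 hours in medium with nerve growth factor, 8 to 13 explants to a well. Explants grown alone (SCG, n = 3 libraries) were set beside explants grown below inserts that carried 10000 NIH/3T3 cells, a line of mouse embryonic fibroblasts (SCG+MEF, n = 3), or 10000 mPSC1 cells, mouse pancreatic stellate cells kept as an immortal line (SCG+PSC, n = 4). Each fibroblast condition rests on 1 cell line, the cells shared medium but not contact, and RNA was taken from pooled explants that also hold glia, fibroblasts and vessels.

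Voltage-gated channels open or close as the membrane potential changes. Sodium channels carry the rising phase of the action potential, potassium channels repolarize the membrane and set how often a neuron can fire, and calcium channels turn a spike into transmitter release, secretion or a change in gene expression. Each alpha subunit of a sodium or calcium channel forms a whole pore, whereas potassium subunits assemble as tetramers, often of mixed members of 1 family. In sympathetic neurons the Kcnq channels carry the M current, a slow potassium current that acetylcholine suppresses through muscarinic receptors, and the N-type calcium channel encoded by Cacna1b is known for its part in norepinephrine release.

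Recovered reads on genes ranged from 32013901 to 39197230 in 9 of the 10 libraries, and depth was not read for SCG+PSC replicate 4. The deposited values are normalized counts, that is, reads per gene divided by a factor for each library. The label of the explants was checked against marker genes. All 14 sympathetic neuron markers were tested, among them Th and Dbh, the enzymes that make norepinephrine, and none was at 0 in every library of a group. Their summed normalized counts ranged from 76084 to 179237 in SCG, from 116745 to 177949 in SCG+MEF and from 92902 to 165469 in SCG+PSC. Fibroblast, mural, glial, macrophage, endothelial and dividing-cell markers were present as well. Libraries with the same replicate number resembled each other across conditions. Over 14030 genes the deviations of same-numbered libraries from their group means correlated with r from 0.38 to 0.76, against -0.57 to 0.10 for libraries with other numbers. Every comparison is therefore given without the replicate number and, where the call changes, with it as a block. In the fit with the block, SCG+PSC replicate 4, which has no counterpart, adds nothing to the differences.

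To compare levels between genes, normalized counts were divided by the length of each gene's merged exons in kilobases (kb). The 55 members that passed the filter on low values, a sum of 10 or more over the 10 libraries, had a median of 49.7 per kb and 158 was the median of 15981 protein-coding genes tested. Potassium channels made up 77.2% ± 1.81 (SD, n = 10 libraries) of the members' summed count per kb, sodium channels 11.5% ± 1.54 and calcium channels 11.4% ± 0.68. The Kcna family alone made up 40.5% ± 5.07. The remaining 5 members, Cacna1f, Cacna1s, Kcna10, Kcng3 and Kcnv2, were at or below 4.05 normalized counts in every library and were not tested. Cacna1s is known from skeletal muscle, and Cacna1f and Kcnv2 from the retina.

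**Figure D1:**
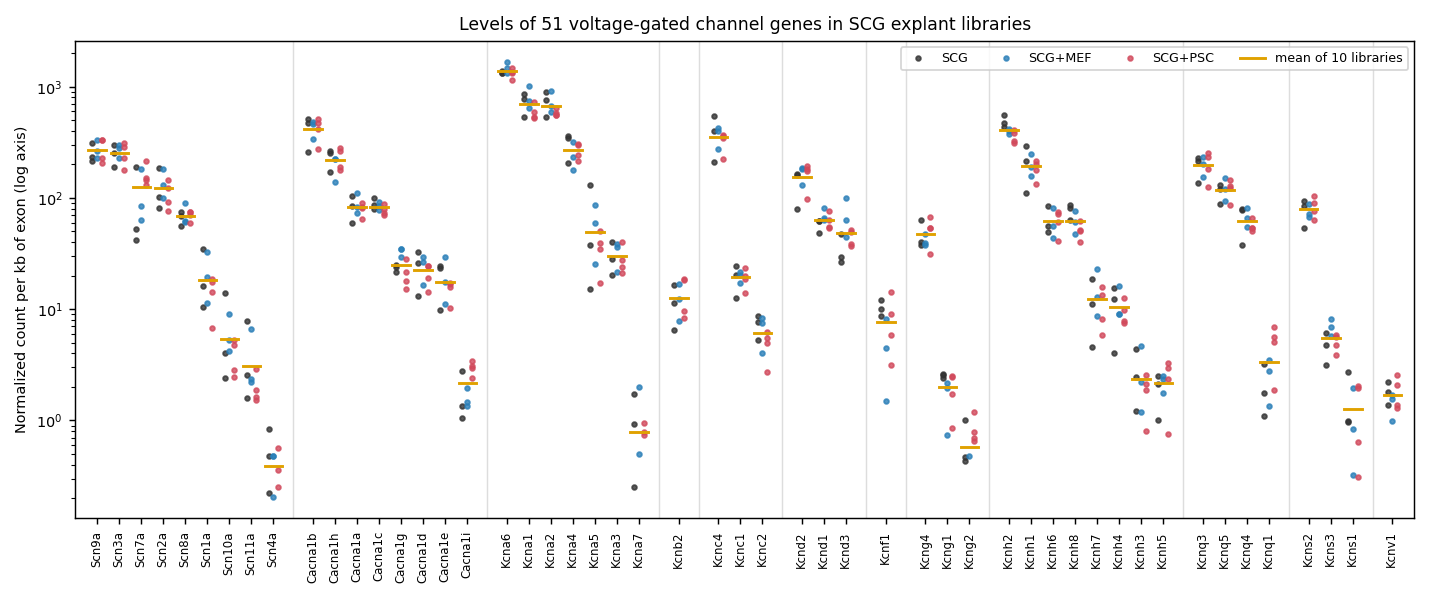
Normalized counts per kb of exon (log axis) of 51 channel genes that passed the filter, by family, with 1 point for each of the 10 libraries (values of 0 are not drawn) and a yellow bar for the mean. Kcna6 had the highest mean, 1381 per kb, and the members spanned more than 3 orders of magnitude.

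Among sodium channels, Scn9a and Scn3a had the highest levels, at 268 ± 53.1 and 255 ± 47.3 per kb (SD, n = 10). They did not differ beyond their spread. Scn9a is known for its role in peripheral sympathetic and sensory neurons, and Scn3a for expression in developing neurons. Scn7a, an atypical family member linked to the sensing of sodium in body fluids and found in glia as well as in neurons, followed at 126 ± 61.7 per kb. Scn2a lay at 122 ± 39.5 and Scn8a, the main channel of mature nodes of Ranvier, at 69.2 ± 10.0 per kb. The sensory neuron genes Scn10a and Scn11a and the skeletal muscle Scn4a had means between 0.387 and 5.42 per kb.

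Of the sodium channel genes, 5 (Scn3a, Scn2a, Scn1a, Scn9a and Scn7a) lie in a cluster on chromosome 2 within 65287462 to 66615367 (GRCm39), and their means ranged from 18.2 per kb for Scn1a to 268 for Scn9a. No member shared exon bases with another gene on its own strand in the basic annotation. Genes on the opposite strand were not checked. The 250 bases before the start of the canonical transcript (GENCODE M39 on GRCm39) are printed for 3 members, because Scn7a and Kcnd3 gave the largest differences between conditions among members with a mean of at least 50, and because Scn9a is the neighbour of Scn7a with another pattern across libraries. Capitals mark CG pairs, and each sequence reads 5′ to 3′ on the strand of its gene.
Scn7a, chr2:66615368-66615617, minus strand: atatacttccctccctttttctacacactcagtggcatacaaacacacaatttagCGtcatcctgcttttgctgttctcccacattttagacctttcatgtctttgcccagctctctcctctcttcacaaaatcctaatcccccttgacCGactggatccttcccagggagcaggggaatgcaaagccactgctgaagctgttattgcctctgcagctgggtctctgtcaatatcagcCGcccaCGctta
Scn9a, chr2:66465297-66465546, minus strand: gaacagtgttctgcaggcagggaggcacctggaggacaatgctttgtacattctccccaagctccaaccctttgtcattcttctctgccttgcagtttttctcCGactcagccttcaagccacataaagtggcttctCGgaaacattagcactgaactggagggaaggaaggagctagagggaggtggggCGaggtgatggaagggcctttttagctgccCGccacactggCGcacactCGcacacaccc
Kcnd3, chr3:105359034-105359283, plus strand: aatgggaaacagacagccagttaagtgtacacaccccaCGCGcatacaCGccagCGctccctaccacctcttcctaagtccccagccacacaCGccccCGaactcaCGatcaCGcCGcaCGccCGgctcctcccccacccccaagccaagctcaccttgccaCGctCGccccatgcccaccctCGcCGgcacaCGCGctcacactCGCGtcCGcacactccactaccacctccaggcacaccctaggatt

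The Scn7a window held 4 CG pairs, the Scn9a window 6 and the Kcnd3 window 20. The 60 members had a median of 12.5 CG pairs in such windows, against 8 in 21770 protein-coding genes. The letters TATAAA, searched on both strands, occurred in the windows of 2 members (3.33%), Scn2a and Kcns1, and in 11.9% of all windows. These matches describe letters only and were not tested.

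Among calcium channels, Cacna1b had the highest level, at 419 ± 95.1 per kb. Cacna1h, a T-type channel that opens near the resting potential, followed at 219 ± 46.9. The P/Q-type Cacna1a and the L-type Cacna1c lay together at 83.2 ± 15.7 and 83.0 ± 8.94 per kb, with no difference beyond their spread. Cacna1g, a second T-type channel, had 25.2, the L-type Cacna1d 22.6 and the R-type Cacna1e 17.5 per kb, and Cacna1i, the last of the T-type genes, had 2.18.

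Among potassium channels, Kcna6 exceeded all other members in every library on the per-kb scale, with 1381 ± 131. Kcna1 had 694 ± 159.8 and Kcna2 669 ± 139.5 per kb, which did not differ beyond their spread. The Kcna genes encode Shaker-type channels of axons. Kcnq3, a subunit of the M channel, had 197 ± 45.0 per kb and Kcnq5 had 119 ± 22.4. Kcnh2, which encodes the ERG channel, reached 409 ± 70.3 and Kcnh1, of the ether-a-go-go type, 194 ± 53.8 per kb. Kcnc4, of the fast Shaw type, had 356 ± 100.2 and the delayed rectifier Kcnb2 12.6 ± 4.59 per kb. The A-type genes Kcnd2, Kcnd1 and Kcnd3 had 155 ± 39.1, 63.3 ± 9.70 and 48.8 ± 21.3 per kb.

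The Kcnf, Kcng, Kcns and Kcnv genes encode silent subunits, which form no channel alone and modify Kcnb channels. Kcns2 had 79.2 ± 15.4 and Kcng4 47.3 ± 12.1 per kb, whereas Kcnf1, Kcns3, Kcng1, Kcnv1, Kcns1 and Kcng2 had means from 0.572 to 7.72. Kcnq1, known from heart and epithelia, had 3.33 per kb. The 15 members tested with a mean normalized count under 50 included most of the silent subunits, and their fold changes were measured on few reads.

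The question of the first comparison was how explants respond to pancreatic stellate cells. Without the block, 0 of the 55 members tested passed the threshold in SCG+PSC against SCG (limma, an adjusted p up to 0.05 over 23779 genes together with a change of 0.5 or more on the log2 scale), where 0.0501% of the protein-coding genes tested did. An unadjusted p under 0.05 was reached by 5 members, against 5.57% of protein-coding genes. With the replicate number as a block, 1 member was higher and 0 were lower, against 1.75% higher and 0.175% lower among protein-coding genes, and 10 of 55 (18.2%) had an unadjusted p under 0.05 against 13.2%. Of these 10, 9 were lower and 1 was higher in SCG+PSC. In bulk RNA, fewer cells of a type and less RNA per cell cannot be told apart.

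The member past the threshold was Scn7a. Its normalized counts were 388, 1401 and 315 in SCG replicates 1 to 3, 471, 1345 and 631 in SCG+MEF, and 975, 1615, 1123 and 1083 in SCG+PSC. In each condition replicate 2 was the highest library, so SCG and SCG+PSC overlapped, while SCG+PSC replicates 1, 2 and 3 each exceeded the SCG library with their number. Scn7a rose with the block by a log2 fold change of 1.12 (SE 0.22, limma adjusted p = 0.0298), whereas without it the difference of 1.08 (SE 0.47) did not pass (adjusted p = 0.964). Tests on recovered reads with the block also called Scn7a (edgeR adjusted p = 0.0318, DESeq2 adjusted p = 0.0432), and so did the block after scaling to 15 pan-neuronal markers (log2 fold change 1.16, adjusted p = 0.00922). Over all alternatives the adjusted p ranged from 0.00267 to 1. The call was lost with SCG+PSC replicate 3 in a block of its own (adjusted p = 0.116). Without the libraries of replicate 2 the blocked difference was 1.58 (adjusted p = 0.00267), and it did not pass without those of replicate 1 or of replicate 3, where the adjusted p reached 0.289.

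Some markers of other cells differed between SCG and SCG+PSC as well. Summed normalized counts of 8 dividing-cell markers were 4062, 17400 and 7826 in SCG replicates 1 to 3 and 14510, 25819, 16897 and 17543 in SCG+PSC. All 8 were called higher in SCG+PSC against SCG with the block, none of them at 0 in every library of a group. Of 8 fibroblast markers, Lum and Fbln1 were called higher, 7 were positive (blocked median 0.38) and 6 had an unadjusted limma p under 0.05 with the block. Their sums ranged from 323897 to 498212 in SCG and from 392342 to 493888 in SCG+PSC. Of 9 macrophage markers Mrc1 was called higher, but 7 were negative (blocked median -0.08). Their sums ranged from 7163 to 11356 in SCG and from 7905 to 9786 in SCG+PSC. Of 8 endothelial markers none was called, although all 8 had a p under 0.05 and 7 were positive (blocked median 0.998). Their sums overlapped, from 3513 to 4464 in SCG and from 4260 to 4589 in SCG+PSC. The 8 mural and smooth muscle markers had a blocked median of -0.27, with 5 negative, 3 with a p under 0.05 and 0 called by limma, and their sums ranged from 58725 to 84176 in SCG and from 48623 to 74462 in SCG+PSC. No satellite glia or Schwann cell marker of 10 was called in this comparison, with sums from 64127 to 82764 in SCG and from 66893 to 81374 in SCG+PSC. The part of these cells in the Scn7a result was not tested.

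**Figure D2:**
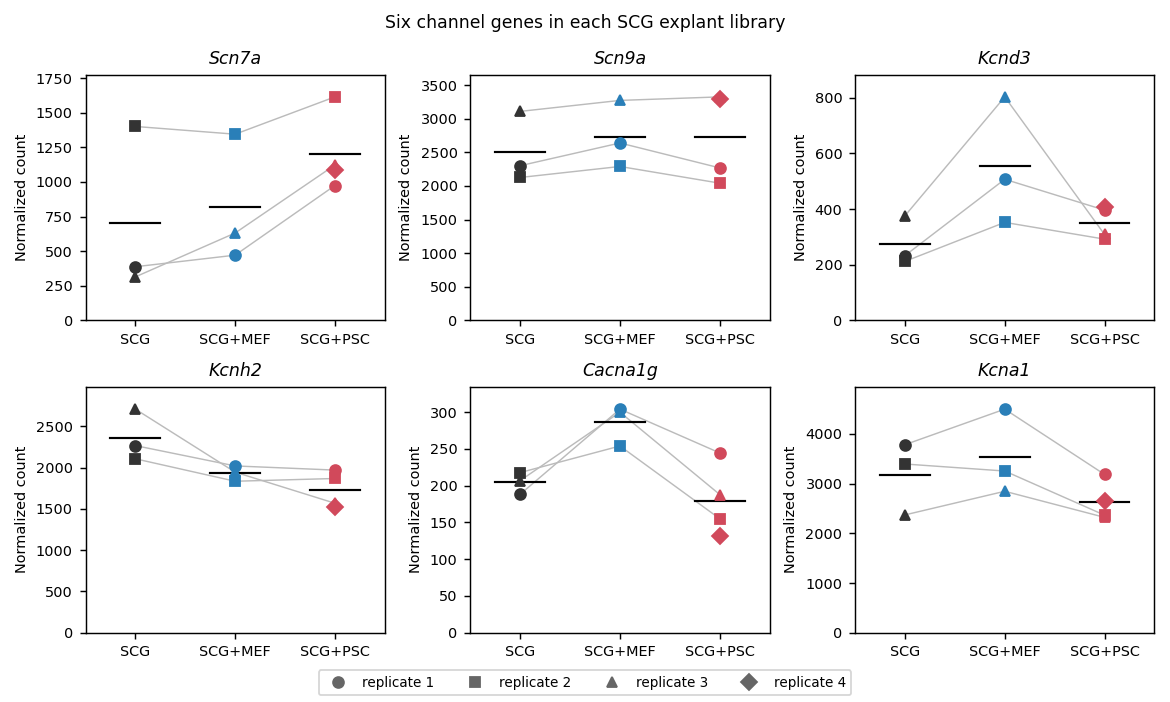
Normalized counts (linear axes from 0) of Scn7a, Scn9a, Kcnd3, Kcnh2, Cacna1g and Kcna1 in each library, with marker shapes for replicate numbers, grey lines joining libraries of 1 number and black bars for group means. Scn7a was highest in replicate 2 of every condition, and each line ended higher in SCG+PSC than in SCG.

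Groups did not overlap for 2 of the 55 members in this comparison (3.64%), against 5.11% of protein-coding genes, and both were Kcnh genes that were lower in SCG+PSC. Kcnh2 had 2268, 2108 and 2710.1 normalized counts in SCG and 1971, 1869, 1569 and 1524 in SCG+PSC, so the SCG+PSC libraries lay below all SCG libraries. The difference was -0.45 on the log2 scale (SE 0.12) without the block, with an adjusted p of 0.696, and -0.39 (SE 0.11) with it, with an adjusted p of 0.141. DESeq2 with the block gave an adjusted p of 0.0418 for Kcnh2, with a fold change under the threshold, and over all alternatives the adjusted p ranged up to 1. Kcnh8, a slowly gating relative of Kcnh2, had 469, 364 and 498 in SCG and 361, 295, 234 and 298 in SCG+PSC. Its difference of -0.58 (SE 0.20) had an adjusted p of 0.858, and the adjusted p was 0.183 with the block.

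The median log2 difference of the 55 members was -0.05, against 0.01 for all protein-coding genes tested, and 34 members were negative. With the block this median was -0.11, and from -0.09 to -0.04 without the libraries of 1 replicate number. With 1 library left out and no block, it ranged from -0.20 (without SCG replicate 2) to 0.11 (without SCG replicate 3, 33 positive). By family, all 7 Kcna genes tested were negative (median -0.26), the 3 Kcnd genes were positive (median 0.29) and the 10 Scn genes had a median of -0.21. These signs of the Kcna and Kcnd genes held under quantile normalization and under scaling to pan-neuronal markers. They did not all hold with 1 library left out and no block. The negative signs of Kcna5 and Kcna3 rested on SCG replicate 3. Kcna5 had 108, 43.8 and 373 normalized counts in SCG and 99.8, 49.7, 143 and 112 in SCG+PSC. The positive sign of Kcnd1 rested on SCG replicate 2, with 331, 258 and 329 in SCG and 332, 292, 404 and 286 in SCG+PSC. None of these genes but Scn7a passed the test. Kcna1 had 3785, 3395 and 2371 normalized counts in SCG and 3186, 2366, 2321 and 2642 in SCG+PSC, with overlapping groups and a blocked difference of -0.27 (SE 0.09, adjusted p = 0.274). Kcna6, the member with the highest level, had 7784, 8143 and 7811 in SCG and 8616, 7926, 6741 and 7739 in SCG+PSC, groups that overlapped throughout.

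For 2 neuronal members of high level the means differed by less than the spread of the libraries. Cacna1b had 4056 ± 1333 normalized counts in SCG (SD, n = 3) and 4126 ± 1023 in SCG+PSC (SD, n = 4). Scn9a had 2511 ± 524 and 2731 ± 673. With SDs of this size a modest difference was not detectable without the block.

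The second comparison asked what fibroblasts that are not pancreatic do to the same explants. In SCG+MEF against SCG, 0 of 55 members passed the threshold without the block, against 0.0188% of protein-coding genes, and 4 had an unadjusted p under 0.05, against 2.72%. With the block 0 were higher and 0 lower, against 0.169% and 0.0688% of protein-coding genes, and 10 of 55 (18.2%) had an unadjusted p under 0.05 against 8.09%. Both comparisons share the 3 SCG libraries, so they are not independent.

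The member with the smallest blocked p was Kcnd3, an A-type channel of neurons and heart, which is named here after its values were seen. It had 233, 212 and 376 normalized counts in SCG, 507, 352 and 803 in SCG+MEF and 396, 292, 309 and 406 in SCG+PSC. Each SCG+MEF library exceeded the SCG library of its number, although SCG+MEF replicate 2 lay below SCG replicate 3. The log2 difference was 0.98 with either fit (SE 0.30 without the block and 0.20 with it), and the adjusted p with the block was 0.102. The call depended on the tool. DESeq2 with the block gave an adjusted p of 0.000357, and limma with SCG+PSC replicate 3 in its own block gave 0.00496, whereas edgeR with the block gave 0.0846, and over all alternatives the adjusted p ranged from 0.000357 to 1. In SCG+PSC against SCG the blocked difference of Kcnd3 was 0.31 (adjusted p = 0.644), and it passed only with SCG+PSC replicate 3 in its own block (0.64, adjusted p = 0.0491, range over alternatives up to 1). Of 8 fibroblast markers Lum and Dcn were called higher in SCG+MEF against SCG with the block, and 7 were positive. Of 10 glial markers Fabp7 was called lower there, but 7 were positive (median 0.085). The part of these markers in the Kcnd3 values was not tested.

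Groups did not overlap for 5 of 55 members (9.09%), against 4.99% of protein-coding genes. Cacna1g had 188, 218 and 207 normalized counts in SCG and 304, 254 and 300.0 in SCG+MEF, a log2 difference of 0.48 (SE 0.22) with an adjusted p of 0.510 with the block. Kcnd1 had 331, 258 and 329 in SCG and 427, 338 and 351 in SCG+MEF, a difference of 0.28 (SE 0.18). Both were higher in every SCG+MEF library. Kcnh2 was lower, with 2022, 1836 and 1946 in SCG+MEF, a difference of -0.28 (SE 0.13) and an adjusted p of 0.567 with the block. The silent subunits Kcnf1 and Kcng1 were lower too, but on few reads. Kcnf1 had 41.5, 58.0 and 48.2 in SCG and 21.3, 39.4 and 7.10 in SCG+MEF, and Kcng1 stayed at or below 12.4 in all libraries.

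Kcng2, another silent subunit on few reads, was listed at 0 in 2 of the 3 SCG+MEF libraries and at 5.26 in the third, against 4.76 to 11.1 in SCG. The member median was 0.05, against 0.03 for all protein-coding genes, and 36 of 55 members were positive. With 1 library left out and no block, that median ranged from -0.18 to 0.21. The lowest came without SCG replicate 2 (13 members positive) and the highest without SCG+MEF replicate 2 (40 positive). With the block, leaving out the libraries of 1 replicate number gave -0.05 (without replicate 2) to 0.13 (without replicate 3). Positive too were 14 of 14 sympathetic neuron markers (median 0.22) and 14 of 15 pan-neuronal markers (median 0.14), with 0 of these markers called by limma. The markers' part in the members' directions was not tested. All 3 Kcnd genes were positive under each scaling. The 5 Kcnq genes and 8 of the 10 Scn genes were positive too, but 1 and 4 of them after scaling to pan-neuronal markers, which moved the median of all protein-coding genes to -0.094. Scn7a differed by 0.41 (SE 0.22, adjusted p = 0.736) in this comparison with the block.

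The third comparison set both fibroblast lines against each other. In SCG+PSC against SCG+MEF 0 of 55 members passed the threshold without the block, as did 0.0% of protein-coding genes, and 3 had an unadjusted p under 0.05, against 3.93%. With the block 0 members were higher and 0 lower, against 0.957% and 0.181%, and 15 of 55 (27.3%) had an unadjusted p under 0.05, against 14.7%. Of these 15, 11 were lower and 4 higher in SCG+PSC. With the block 12 of 14 sympathetic neuron markers (median -0.21, 7 with an unadjusted p under 0.05) and 13 of 15 pan-neuronal markers (median -0.11, 3 with such a p) were negative as well, with 0 called by limma, and their part in the members' differences was not tested. The SCG+MEF and SCG+PSC libraries also enter the comparisons with SCG.

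Closest to the adjusted threshold with the block were 3 members named after their values were seen in this comparison. Cacna1h had 2114, 2117 and 1337 normalized counts in SCG+MEF and 2494, 2666, 1815 and 1699.5 in SCG+PSC, and its difference was 0.34 (SE 0.07, adjusted p = 0.0599). Kcna1 had 4499, 3254 and 2846 in SCG+MEF and differed by -0.42 (SE 0.09, adjusted p = 0.0612). Scn2a had 1221, 929 and 1688 in SCG+MEF and 851, 716, 1146 and 1356 in SCG+PSC and differed by -0.48 (SE 0.11, adjusted p = 0.0614). All 3 moved the same way in each of the 3 pairs of same-numbered libraries, and all 3 had groups that overlapped. With SCG+PSC replicate 3 in a block of its own, Kcna1 was called lower (log2 difference -0.51, adjusted p = 0.0413, range over alternatives 0.00536 to 1). DESeq2 with the block called Kcnd3 lower, at -0.65 (adjusted p = 0.0355, range up to 1). Scn7a differed by 0.71 with the block (adjusted p = 0.207), and by 0.94 without the libraries of replicate 2 (adjusted p = 0.0435, range up to 1). With the block 6 of the 8 dividing-cell markers were called higher in SCG+PSC than in SCG+MEF. Of 8 fibroblast markers Lum was called lower, while 4 were positive and 4 negative (median 0.01). The part of these markers in the members' differences was not tested.

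Groups did not overlap for 3 of 55 members (5.45%), against 4.61% of protein-coding genes. Cacna1g was lower in SCG+PSC, with 245, 155, 188 and 131 normalized counts against the SCG+MEF values above, a log2 difference of -0.70 without the block (SE 0.20) and -0.56 with it (SE 0.17, adjusted p = 0.173). Cacna1i was higher, with 28.8, 33.5, 23.5 and 30.3 in SCG+PSC and 14.2, 13.1 and 19.3 in SCG+MEF, and so was Kcng2, with 7.67, 7.10, 8.55 and 13.1 in SCG+PSC. The member median was -0.13, against -0.02 for all protein-coding genes. With the block these medians were -0.15 and -0.02. After scaling to pan-neuronal markers they were -0.04 and 0.07 without the block, and 0.00 and 0.14 with it. The member median thus came nearer to 0 with the scaling, and it lay below that of all protein-coding genes in each of these fits.

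**Figure D3:**
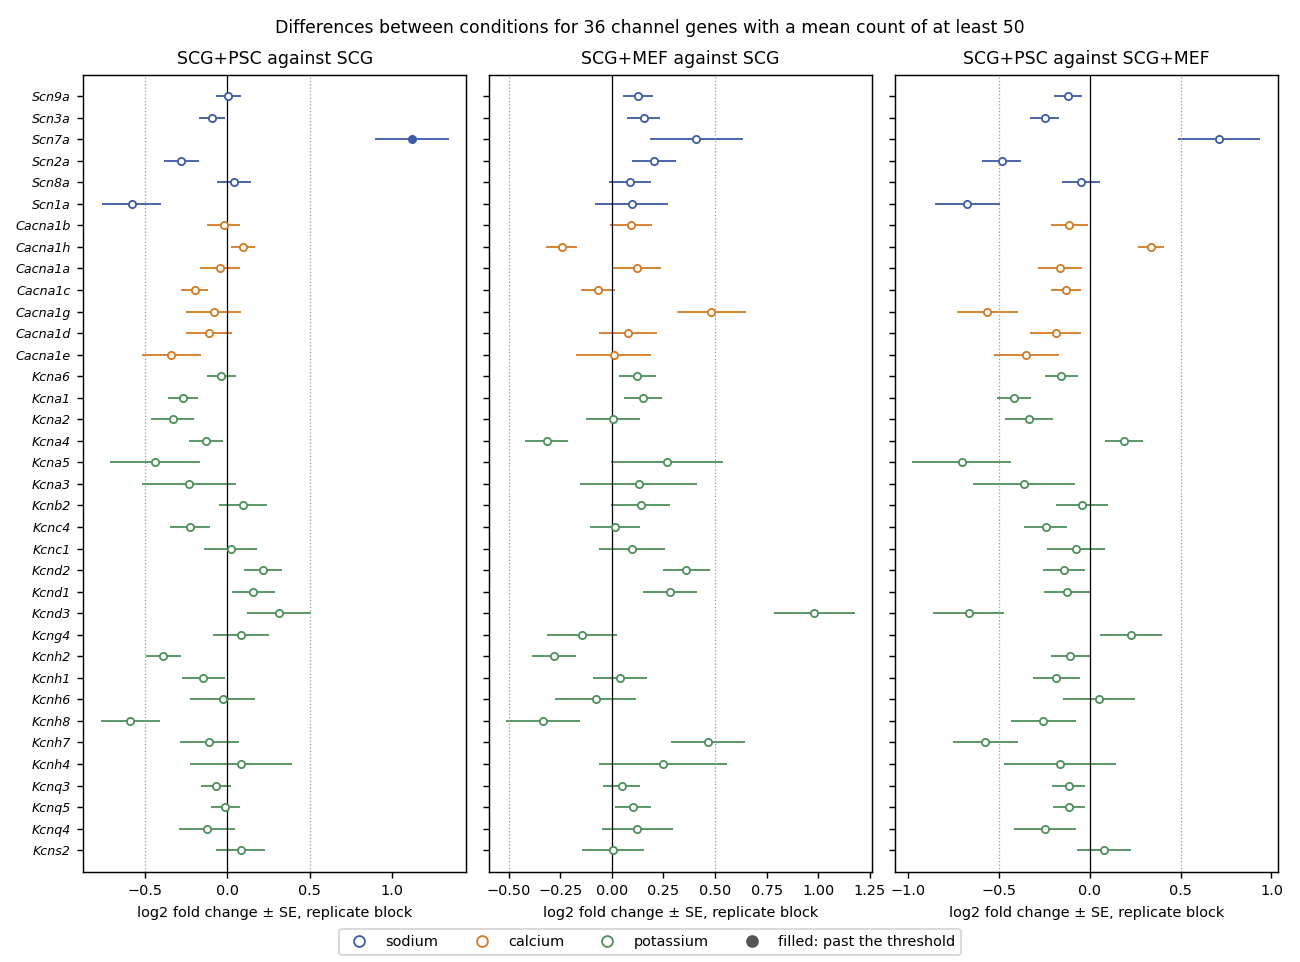
Log2 fold changes with SE from the fit with the replicate block, for 36 channel genes with a mean normalized count of at least 50, in the 3 comparisons. Dotted lines stand at the fold threshold of 0.5 in size and filled points passed it and the adjusted p, which only Scn7a in SCG+PSC against SCG did.

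More of the variation among libraries followed the replicate number than the condition. Over replicates 1 to 3 of the 3 conditions, the number took a median of 77.1% of the squares on the log2 scale for the 40 members with a mean of at least 50, and the condition 9.19%. For all 12845 protein-coding genes of that level the shares were 60.8% and 13.8%. Among these replicates, number 2 was the lowest library in all 3 conditions for 26 of the 40 members (65.0%), against 20.5% of protein-coding genes, and the highest for 2 members, Scn7a and Cacna1h, against 16.1%.

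By family, replicate 2 was lowest for 6 of 7 Scn members, all 4 Kcnq, all 3 Kcnd and 4 of 7 Cacna1 members, but for 1 of 6 Kcna members, Kcna5. Kcna1, Kcna2 and Kcna4 were instead the lowest of replicates 1 to 3 in replicate 3 of every condition, as was Cacna1h. Kcnq3 had 2531, 1599 and 2723 normalized counts in SCG replicates 1 to 3 and 2389, 1832 and 2777 in SCG+MEF. Kcna4 had 1776, 1855 and 1068 in SCG and 1629, 1212 and 921 in SCG+MEF. Kcnh2 and Cacna1g varied least with the number, and the condition took 63.5% and 66.6% of their squares.

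Pan-neuronal markers were also lowest in replicate 2, with summed normalized counts of 360694, 223640 and 398922 in SCG replicates 1 to 3, 371442, 277391 and 363191 in SCG+MEF, and 331719, 232949, 396146 and 375222 in SCG+PSC. Dividing-cell markers were highest there in each condition. The part of the share of neurons in these channel values was not tested beyond the scaling to the same markers.

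**Figure D4:**
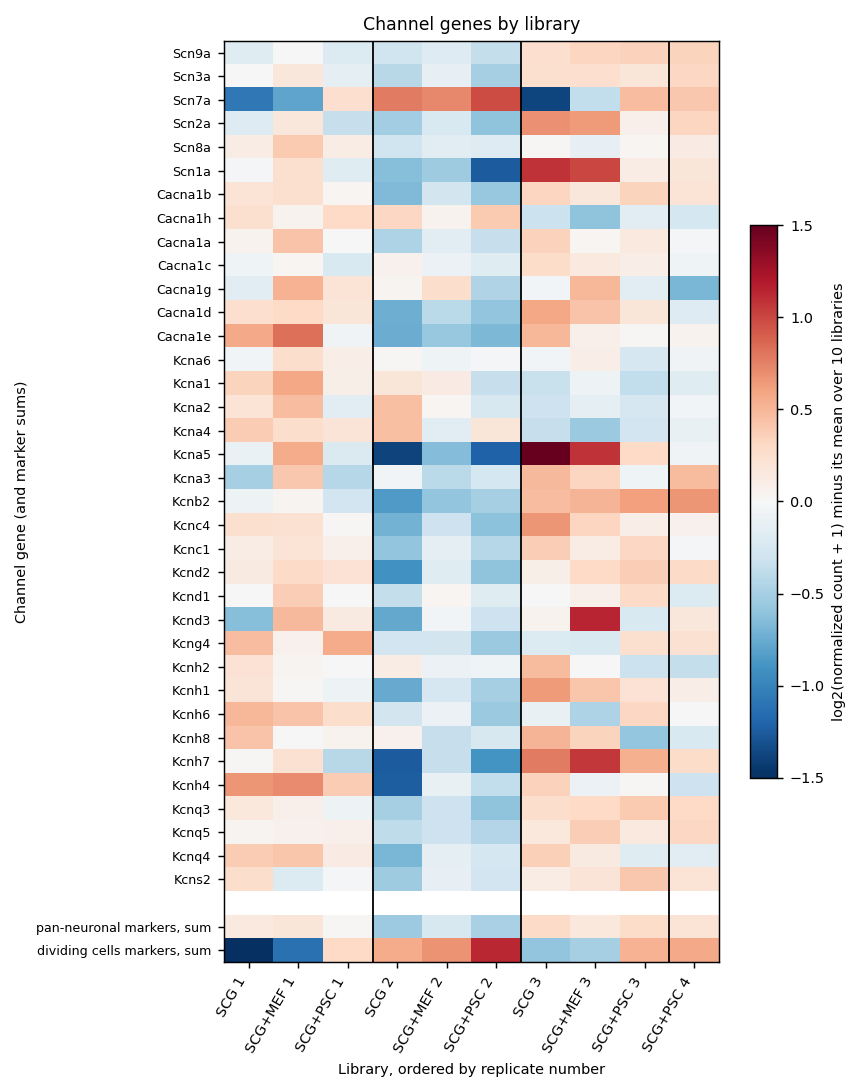
Deviation of log2(normalized count + 1) from its mean over 10 libraries for 36 members and for the sums of pan-neuronal and dividing-cell markers, with libraries ordered by replicate number (colour scale clipped at 1.5 either way). Most rows are blue in replicate 2 and red in replicate 3, while Scn7a is red in replicate 2 and Kcna1, Kcna2 and Kcna4 are lowest in replicate 3.

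Genes that act with these channels were followed as 3 further lists. Auxiliary subunits (28 of 30 tested, among beta, alpha2delta, Kcnab, Kcnip, Kcne and Fgf subunits) had 0 genes past the threshold in the 3 comparisons, without the block or with it. Their blocked medians were -0.08 in SCG+PSC against SCG, 0.10 in SCG+MEF against SCG and -0.16 in SCG+PSC against SCG+MEF. In this order and fit, 4, 5 and 9 of the 28 had an unadjusted p under 0.05, against 13.2%, 8.09% and 14.7% of protein-coding genes. Amigo1, a partner of Kcnb channels, had 1870.1, 1549 and 1998 normalized counts in SCG and 1489.7, 1224, 1395 and 1358 in SCG+PSC, with no overlap. Its blocked difference of -0.40 (SE 0.08) had an adjusted p of 0.0282 but a size under the fold threshold. Fgf13, which binds the tail of sodium channels, had 1399, 1114 and 756 in SCG and 1771, 1536, 1676 and 1783 in SCG+PSC, also with no overlap, and a blocked difference of 0.65 (SE 0.15, adjusted p = 0.0708). Fgf13 passed with DESeq2 and the block (adjusted p = 0.00137) and with the block after pan-neuronal scaling (adjusted p = 0.0331), in a range over alternatives that reached 1. Its blocked difference was 0.40 without the libraries of replicate 3 and 0.38 with SCG+PSC replicate 3 in its own block, and the unblocked difference of 0.68 became 0.44 without SCG replicate 3. Kcne3 differed by 1.32 on few reads (adjusted p = 0.411) and Kcnab1 by 0.19 (adjusted p = 0.513) with the block.

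Among 38 other potassium and HCN channels (36 tested), 0 passed in limma without the block. With it, Kcnj10, an inward rectifier known from satellite glia, fell in SCG+MEF against SCG by 0.71 on the log2 scale (SE 0.09, limma adjusted p = 0.00921) and was higher in SCG+PSC against SCG+MEF by 0.72 (SE 0.09, adjusted p = 0.0159). It had 1778, 1974 and 1569.7 normalized counts in SCG, 1256, 1120.3 and 888 in SCG+MEF and 1740.1, 1986, 1629 and 1612 in SCG+PSC, and the SCG+MEF libraries lay below all others. Without the block the limma adjusted p was 0.560 and 0.780, and DESeq2 called both differences (adjusted p = 0.0482 and 0.0443), in ranges over alternatives that reached 1. In SCG+MEF against SCG the blocked call was lost without the libraries of any 1 replicate number, with differences of -0.82, -0.66 and -0.66 and adjusted p-values of 0.0513, 0.131 and 0.128 without replicates 1, 2 and 3. In SCG+PSC against SCG+MEF it was lost without those of replicate 1 or 3, with differences of 0.85 and 0.65 and adjusted p-values of 0.135 and 0.137. Fabp7, a glial marker, was called in the same directions, at -0.50 (SE 0.08) and 0.56 (SE 0.08). Of all 10 glial markers, however, 7 were positive in SCG+MEF against SCG (blocked median 0.085). In SCG+PSC against SCG+MEF 6 of the 10 were negative (blocked median -0.10). Their sum was 64127 to 82764 in SCG, 74205 to 86219 in SCG+MEF and 66893 to 81374 in SCG+PSC. In SCG+PSC against SCG the 4 genes of smallest p, Kcnj15, Kcnj5, Kcnj9 and Kcnk9, had adjusted p-values of 0.307 or more with the block. Kcnk9, a background potassium channel, had 379.7, 317 and 84.0 in SCG and 395, 252, 489 and 517 in SCG+PSC.

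The 12 anchors of the axon initial segment and node, which hold sodium and potassium channels in place, had 0 genes past the threshold in any comparison with either fit. With the block all 12 were positive in SCG+MEF against SCG (median 0.19) and all 12 negative in SCG+PSC against SCG+MEF (median -0.17), comparisons that share the SCG+MEF libraries. After pan-neuronal scaling 7 were positive in the first and 6 negative in the second. Ank3, which encodes the main scaffold, had 16855, 16367 and 13487 normalized counts in SCG and 15608, 12188, 13483 and 13894 in SCG+PSC, overlapping groups with a blocked difference of -0.18 (SE 0.09, adjusted p = 0.533). Dlg4, Nrcam and Nfasc differed by -0.16, -0.10 and 0.11 in the same fit, none with an adjusted p under 0.661.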

How the data were processed

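The 10 nerve libraries comprised 3 SCG, 3 SCG+MEF and 4 SCG+PSC libraries, and groups and replicate numbers were taken from the library titles. All 4 SCG+PSC libraries that the labels give were used, although the study's figures appear to plot fewer. Per the labels and methods the authors aligned stranded mRNA reads to GRCm39 with STAR 2.7.10b, counted them on GENCODE M33 basic genes and divided each library by its size factor in DESeq2 1.38.3 (R 4.2.2). The deposited values are thus a signal, normalized counts of 56941 genes, unfiltered. The nerve and the PSC tables were normalized separately, and tests were made within the nerve table only. Reads recovered from the steps of the values were accepted for 9 of the 10 nerve libraries, and SCG+PSC replicate 4 is left out of edgeR and DESeq2 fits. Nothing states that replicates came from separate litters, so p-values measure the spread between these libraries, and intervals of counting error were not used.

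Genes with normalized counts summing to at least 10 over the 10 nerve libraries were tested as log2(normalized count + 1) in R 4.3.3 with limma 3.58.1 (trend), with all 10 libraries and no block, with Benjamini-Hochberg adjustment over the 23779 genes tested. Calls needed an adjusted p up to 0.05 together with a change of 0.5 or more on the log2 scale. The pseudocount of 1 understates changes of genes at low counts. The replicate numbers were taken as pairing, since each of the 9 same-numbered pairs correlated with r of at least 0.38 over 14030 genes with a mean of at least 50. The authors' own model took the experimental batch as a covariate, but no source used here ties a library to a batch, so whether the replicate numbers stand for those batches is not known. Alternatives were the replicate block, pseudocounts of 0.5 and 8, other filters, quantile normalization, scaling to pan-neuronal markers, edgeR 4.0.16, DESeq2 1.42.0 (its adjusted p is missing for some genes with few reads), only the 2 groups compared and leaving out libraries. The blocked fits other than the plain replicate block were added after the data were seen. The tests were checked on simulated data that held no effect of the replicate number. That check cannot show how the fits perform where same-numbered libraries vary together.

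Genes were named by a rule that took members past the threshold in either fit, up to 5 in each direction per comparison with a mean of at least 50 and groups without overlap, the 4 highest Scn and Cacna1 and the 2 highest of each Kcn family per kb, and for the other lists the 4 of smallest p in SCG+PSC against SCG and any past the threshold. Other members were named after their values were seen. Single results of some members are not reported here, and those members still count in the family and member totals. Exon lengths, coordinates and promoter windows came from GENCODE M39 on GRCm39, a later release than the authors'. Of 31 auxiliary subunit symbols 30 were matched. The members and lists were chosen with earlier results of these data known.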

Additional observations from a re-analysis of the deposited data

Results flagged for a closer look

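In SCG+PSC, the group with 4 libraries, replicate 2 stood far below the other 3 for 2 of 36 channel genes with a mean of at least 50. Kcnc4 had 1079 normalized counts there and 1673 to 1779 in the others. Cacna1e had 161 and 249 to 267. The gap to the nearest library was 0.849 and 0.832 of the group's range, above Dixon's critical value for 4 libraries, which chance passes in about 1 of 20 groups. Both were also lowest in replicate 2 of SCG and of SCG+MEF.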

How the results depend on the processing

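The counts of channel genes past the threshold were 0 in each comparison and direction, and stayed 0 with pseudocounts of 0.5 and 8, a stricter filter or none, quantile normalization, pan-neuronal scaling, edgeR, DESeq2, only the 2 groups, and adjusted p alone, all without the block. With the replicate block, whose numbers were taken as pairing, 1 was higher in SCG+PSC against SCG (Scn7a), and the block changed no other call of a channel gene. With SCG+PSC replicate 3 in its own block 1 was higher there (Kcnd3) and 1 in SCG+MEF against SCG, and 1 was lower in SCG+PSC against SCG+MEF. DESeq2 with the block gave 1 higher, 1 higher and 1 lower in the same order, and edgeR with the block and pan-neuronal scaling with the block gave 1 higher in SCG+PSC against SCG. Fits that each lacked 1 library gave 0 in every count with no block. With it, leaving out the libraries of replicate 2 gave 1 higher (Scn7a) in SCG+PSC against SCG and against SCG+MEF, and the other such fits gave 0.

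Protein-coding genes past the threshold were 8 in SCG+PSC against SCG, and 308 with the replicate block, 301 with SCG+PSC replicate 3 apart, 327 with pan-neuronal scaling and the block, 323 with edgeR and the block, 415 with DESeq2 and the block, 55 with DESeq2, 3 with edgeR, 3 with the 2 groups only and 4 with pan-neuronal scaling. In SCG+MEF against SCG the 3 became 38, 76, 31, 36, 105 and 21 under the first 6 of these, 0 with the 2 groups only and 5 with quantile normalization. In SCG+PSC against SCG+MEF the 0 became 182, 141, 383, 206, 365 and 18 under the same 6. Leaving out each library in turn gave 3 to 9, 2 to 4 and 0 to 0, and leaving out the libraries of replicates 1, 2 or 3 with the block gave 19, 252 and 28, then 12, 11 and 6, then 1, 171 and 2. The cause of these shifts was not tested.

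Of 36 reported gene and comparison pairs with an unadjusted p under 0.05 in either fit, 5 of 852 refits changed sign, all without the block and with 1 library left out. The pairs were picked by p in these same data, and many refits used the same libraries. This count therefore does not measure how stable the signs are. Leaving out each library moved Scn2a from -0.38 to 0.22 in SCG+PSC against SCG (0.22 without SCG replicate 3 and 0.027 without SCG+PSC replicate 2) and Scn1a from -0.82 to 0.047 (without SCG replicate 3). In SCG+PSC against SCG+MEF it moved Scn3a from -0.25 to 0.022 (without SCG+PSC replicate 2), and in SCG+MEF against SCG it moved Kcnh7 from 0.93 to -0.082 (without SCG replicate 2). With 3 or 4 libraries a group, members with SDs near their differences could not be resolved, and members under 50 counts were measured on few reads.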

Other observations

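The mPSC1 cells themselves carried transcripts of some channel genes. In their own table, which was normalized apart from the nerve table, 11 of the 60 members had a mean of at least 50 normalized counts over 6 libraries, 31 summed to under 10, and 24 had at least 50 in the explants and under 10 in mPSC1 cells. The members with the highest counts per kb were the A-type Kcnd1, with 1073, 977 and 657 normalized counts in PSC cultured alone and 1238, 1272 and 787 with explants, and the L-type Cacna1c, with 2078, 1852 and 1974 alone and 2168, 1823 and 1979.7 with explants. Both groups overlapped for each gene. Kcna4 followed, with 412 to 557 alone, and Kcnh2, with 229 to 293. Scn7a had 273, 285 and 98.3 alone and 342, 363 and 60.6 with explants, and Scn9a 67.0 to 74.2 alone. In coculture the mPSC1 cells grew on inserts, and whether any of their RNA reached the explant libraries was not tested.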
